A study of Mus musculus with 2 samples.

Results

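A set of 8 genes whose products detect DNA in the cytosol, or limit the nucleic acids that would be detected there, was examined in CT26 cells with and without knockdown of Setdb1. They were taken by name from the deposited gene table: Cgas (written Mb21d1 there), Tmem173 (which encodes STING), Tbk1, Trex1, Samhd1, Rnaseh2a, Rnaseh2b and Rnaseh2c. These are 8 of 54680 loci, and each name stood on 1 locus. RNA sequencing had been done on 2 libraries of CT26, a mouse colon cancer line. In the knockdown library, shSetdb1, lentivirus had delivered a short hairpin RNA that targets Setdb1, the gene of a methyltransferase acting on histone H3. In the control library, shCtrl, cells labelled wild type had received lentivirus with the knockdown vector left empty. Whether that vector expressed a hairpin, and whether either culture was a clone, is not stated. Both cultures were grown in the same medium with serum and collected at 6 days, when the knockdown cells had changed in appearance and were described as differentiated. With 1 library in each group there is no replicate check and no test between conditions, so every difference below describes these 2 libraries.

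DNA that reaches the cytosol, from a virus, a broken nucleus or a retroelement copy, is bound by the enzyme cGAS, which then makes the cyclic dinucleotide cGAMP. cGAMP binds STING on the endoplasmic reticulum, STING moves to the Golgi, and there the kinase TBK1 phosphorylates the transcription factor IRF3, which turns on interferon and chemokine genes. The nucleases work in the other direction: TREX1 degrades DNA from its 3′ end, SAMHD1 breaks down the deoxynucleotides that DNA synthesis needs, and RNase H2, an enzyme of 3 different subunits, removes RNA paired with DNA. Inherited loss of function of these nuclease genes in people causes Aicardi-Goutières syndrome, an inherited interferon disease.

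Levels are given as deposited, in FPKM, which here divides fragments by 1 depth common to both libraries and by gene model length. FPKM ratios therefore carry the 1.03 ratio of the libraries' read totals. Differences between levels are given as log2 ratios of (FPKM + 1), shSetdb1 over shCtrl, and on this scale the change of a low gene looks smaller than it is. Whole reads could be recovered from the FPKM values, 18421604 of them in shCtrl against 19045830 in shSetdb1. Read ratios are relative to each library's own total and carry a 95% exact binomial (Clopper-Pearson) interval, which covers counting error only, since reads without molecular identifiers are not independent molecules. The hairpin's target, Setdb1, went from 1340 reads in shCtrl to 317 in shSetdb1, a log2 ratio of -1.72. Of the 10 intestinal epithelial markers examined, the keratins Krt18, Krt19 and Krt20 reached 1 FPKM in at least 1 library, Krt19 in shSetdb1 only, and Epcam and Cdh1, defining markers of this epithelium, were listed at 0 in both. Of 8 leukocyte markers, Cd14 had 638 and 1217 reads, and the other 7 had 1 read in shCtrl and 4 in shSetdb1 in all. In RNA from a whole culture, a lower share of cells with a transcript and less transcript per cell cannot be told apart.

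Of the 8 genes, 7 reached 1 FPKM in at least 1 library, the level required to be counted. Tmem173 was the 1 gene at least 2-fold higher in shSetdb1, no gene was 2-fold lower, and the other 6 lay between. Over all 10671 loci at this level, 6.81% were at least 2-fold higher, 4.85% at least 2-fold lower and 11.7% either, so 1 of 7 is near what the whole table shows. The median log2 ratio of the 7 was 0.00, against -0.00039 over all loci, and 5 of the 7 lay between the quartiles of all loci, -0.36 and 0.38. At this depth small differences were resolved from counting error: the interval of the read ratio lay away from 1 for 5 of the 7 genes, 2 above and 3 below, and for 75.8% of all loci. The plot of levels shows the genes spread over more than 1 order of magnitude, with the paired points close together for all but Tmem173.

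**Figure D1:**
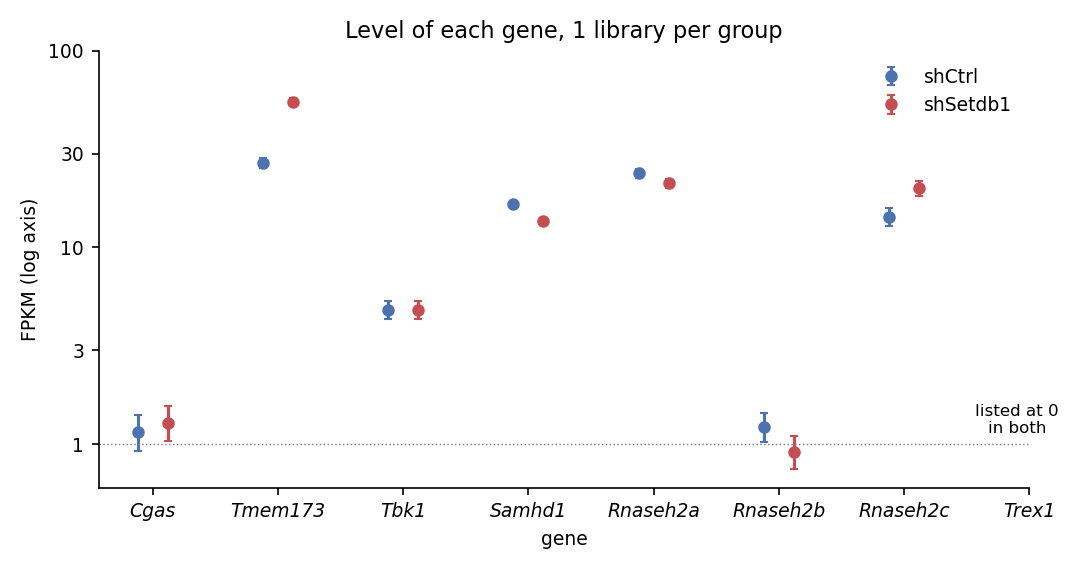
FPKM of each gene on a log axis in shCtrl (blue) and shSetdb1 (red), 1 library each; bars are exact Poisson 95% intervals of the reads. Tmem173 stands at 27.0 and 55.1 FPKM, Tbk1 at 4.81 in both, and Trex1 is listed at 0 in both.

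Among the sensing genes, the adaptor gene was higher in shSetdb1, while the enzymes upstream and downstream of it did not differ beyond counting error. Tmem173, which encodes STING (ENSMUSG00000024349, minus strand of chromosome 18, 35733678 to 35740554 in GRCm38), was at 27.0 FPKM (1164 reads) in shCtrl and 55.1 FPKM (2376 reads) in shSetdb1. This is a log2 ratio of 1.003, higher than those of 93.2% of loci. The FPKM ratio was 2.04, and the read ratio relative to own totals was 1.97, with an interval of 1.84 to 2.12. The gene therefore sits at the 2-fold threshold itself: scaled by the libraries' own read totals its log2 ratio was 0.96, and it was under 1 in 5 of the 7 alternative calculations. In GENCODE M21, where Tmem173 has 2741 exon bases against 2302 in the deposited model, none of them is shared with another annotated gene.

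Cgas (ENSMUSG00000032344, minus strand of chromosome 9, 78430526 to 78443237), the enzyme that makes cGAMP, had 89 reads in shCtrl and 99 in shSetdb1, or 1.15 and 1.28 FPKM. Its read ratio was 1.08 with an interval of 0.800 to 1.45, which leaves room for any true ratio between these bounds. Cgas was the lowest of the genes with reads in shCtrl. Tbk1 (ENSMUSG00000020115, minus strand of chromosome 10, 121546455 to 121586787), the kinase recruited by STING, had 352 reads in each library. Its level was 4.81 FPKM in both, and its read ratio of 0.967 had an interval of 0.832 to 1.12. The level of Tmem173 was 23.4 times that of Cgas in shCtrl and 43.0 times in shSetdb1, per length of the gene model. Against Tbk1 it was 5.62 times as high in shCtrl and 11.5 times in shSetdb1.

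**Figure D2:**
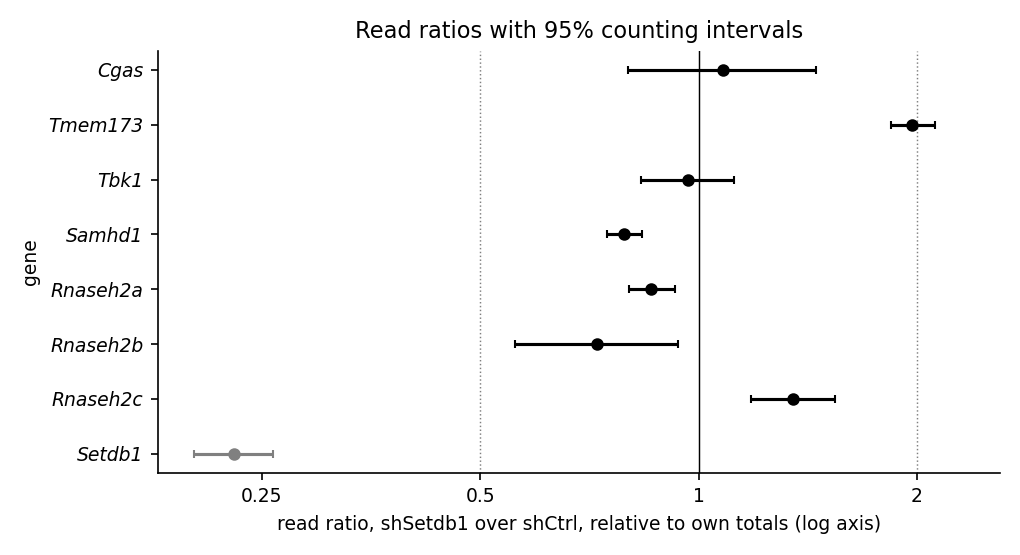
Read ratios, shSetdb1 over shCtrl and relative to each library's own total, on a log axis; bars are 95% exact binomial intervals, and dotted lines mark 0.5 and 2. The Tmem173 interval spans 2, those of Cgas and Tbk1 span 1, and Setdb1 (grey) is at 0.229.

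Samhd1 and 2 of the RNase H2 subunit genes were slightly lower in shSetdb1 and the remaining subunit gene was higher. Samhd1 (ENSMUSG00000027639, minus strand of chromosome 2, 157097533 to 157135265), the deoxynucleotide hydrolase, had the most reads of the 8 genes in shCtrl. It went from 2849 reads there to 2327 in shSetdb1, or 16.6 and 13.6 FPKM. Its log2 ratio was -0.27 and its read ratio 0.790, with an interval of 0.748 to 0.835. This gene shares no exon base with another gene. Its difference was small but outside counting error, and it was nowhere near 2-fold.

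Rnaseh2a encodes the catalytic subunit of RNase H2 (ENSMUSG00000052926, minus strand of chromosome 8, 84956610 to 84969767). It was at 23.8 FPKM (1563 reads) in shCtrl and 21.2 FPKM (1392 reads) in shSetdb1, a read ratio of 0.861 (0.801 to 0.927). Rnaseh2b, an auxiliary subunit that binds the replication clamp (ENSMUSG00000021932, plus strand of chromosome 14, 62292589 to 62372992), was at 1.22 FPKM (143 reads) and 0.915 FPKM (107 reads). It passed the level filter through shCtrl alone, and its read ratio was 0.724 (0.558 to 0.936). Rnaseh2c, the other auxiliary subunit (ENSMUSG00000024925, plus strand of chromosome 19, 5601873 to 5603439), went the other way, from 14.3 FPKM (391 reads) to 20.0 FPKM (544 reads). Its log2 ratio was 0.45, higher than those of 78.1% of loci, and its read ratio was 1.35 (1.18 to 1.54). The read ratio intervals of the catalytic and B subunits overlapped with each other, and neither overlapped with that of the C subunit. These intervals cover counting error only, and 75.8% of all loci had one away from 1. The 3 proteins form 1 complex, and whether the read ratios of their transcripts differ beyond the spread between cultures was not tested.

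The Rnaseh2c locus overlaps that of Kat5 on the opposite strand. In GENCODE M21, Rnaseh2c has 1715 exon bases, and 75.2% of these belong to no other gene. The deposited Rnaseh2c model has 1455 bases, and the share of these that is its own was not computed. Kat5 also differs, with 2008 bases deposited and 3509 in GENCODE M21. Kat5, a histone acetyltransferase gene, had 1197 reads in shCtrl and 1187 in shSetdb1. Rnaseh2a meets Prdx2 at its start, where the loci overlap from 84969587 to 84969767, and Prdx2 had 6370 and 6608 reads. Of the 3509 exon bases of Rnaseh2a, 2993 (85.3%) are its own. The overlap with Prdx2 is too short to hold all the others, and which other genes share them was not examined. The strand setting used in counting is not given in the sources used here, and the library kit named in the labels was not described as marking strand. How far reads of these neighbours enter the Rnaseh2c and Rnaseh2a values was not tested.

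The order of the levels depended on which length divided the reads. Per length of the gene model, shCtrl ran Tmem173, Rnaseh2a, Samhd1, Rnaseh2c, Tbk1, Rnaseh2b and Cgas from high to low. The models of Samhd1 (9150 bases) and Rnaseh2b (6243 bases) are far longer than their principal annotated transcripts of 3926 and 1494 bases. With the longest principal transcript as the length, an alternative chosen after seeing the data, Samhd1 came first at 39.4 FPKM in shCtrl, before Rnaseh2a at 28.5 and Tmem173 at 27.5. Rnaseh2b was then at 5.20 FPKM in shCtrl and 3.76 in shSetdb1. The catalytic subunit's level was 19.4 times that of Rnaseh2b in shCtrl per model length and 5.48 times per transcript length. In shSetdb1, Rnaseh2a and Rnaseh2c were at nearly the same level, a ratio of 1.06 per model length and 0.967 per transcript length, against 1.66 and 1.51 in shCtrl. On both lengths, Rnaseh2b was the lowest of the subunits in both libraries.

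Trex1 (ENSMUSG00000049734, minus strand of chromosome 9, 109057933 to 109059734) was listed at 0 in both libraries. It encodes the main DNA exonuclease of the cytosol, and the table gives no level for it here. Every one of its 1147 exon bases is also an exon base of Atrip, a DNA damage checkpoint gene on the same strand that ends at the same base. Of the 9 annotated Atrip transcripts, 2 contain the whole Trex1 coding sequence of 945 bases. The first 120 coding bases are shown because any read that falls in them matches both genes and cannot be assigned by position. They lie at chr9:109058802-109058921 on the minus strand of GRCm38, are written 5′ to 3′ from the GENCODE M21 transcript, and have the start codon in capitals.
Trex1: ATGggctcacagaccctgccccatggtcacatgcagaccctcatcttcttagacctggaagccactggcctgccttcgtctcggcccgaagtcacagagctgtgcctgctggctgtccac

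The 0 of Trex1 was shared by nearly all genes with this property. Of 177 protein-coding genes with no exon base of their own, 167 (94.4%) were listed at 0 in both libraries, against 36.9% of the 21774 protein-coding genes that have bases of their own. How reads over bases of 2 genes were assigned is not given in the sources used here. A difference in Trex1 between the libraries was therefore not measurable from this table. Atrip had 375 reads in shCtrl and 349 in shSetdb1, or 2.80 and 2.61 FPKM, with a read ratio of 0.900 (0.776 to 1.04). Of its exon bases 84.0% are its own, so the Atrip value does not stand in for Trex1. In the exon map all 3 blocks of Trex1 lie inside the last block of Atrip.

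**Figure D3:**
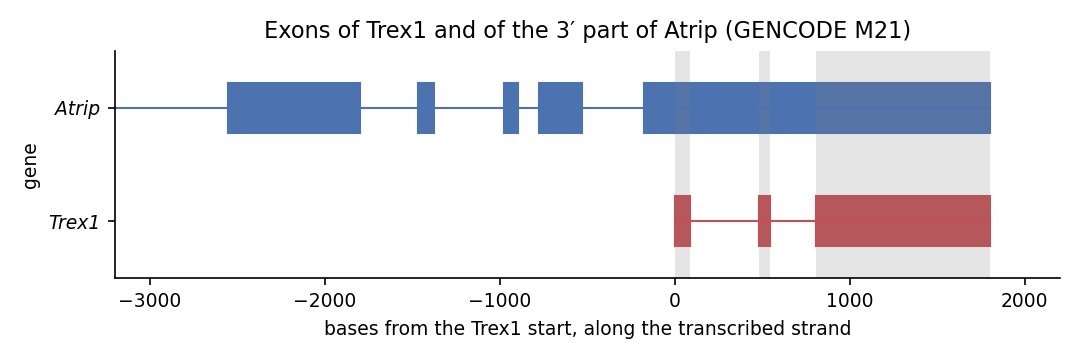
Merged exons (boxes) of Trex1 (red) and of the end of Atrip (blue) in GENCODE M21, by bases from the Trex1 start along the transcribed strand; grey bands mark the Trex1 exons. Every Trex1 exon falls inside the last Atrip exon block, so 0 of its 1147 exon bases are its own.

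The promoters of these genes were read beside those of genes known to be switched on by this pathway. Interferon turns genes on through the interferon-stimulated response element, searched here as GAAANNGAAA on both strands, and through the STAT site called GAS, searched as TTCNNNGAA, which reads the same on both strands. RefSeq promoter windows (GRCm38.p6, 250 bases before to 50 after the start) were found for 6 of the 8 genes, not for Tmem173 or Rnaseh2b, and Trex1 had windows at 2 starts. None of the 7 windows held GAAANNGAAA, which 1131 of all 32851 windows (3.44%) hold. TTCNNNGAA was found in Samhd1 at position -235 and in Rnaseh2a at position 17, counted from the RefSeq start site, and in 8.30% of all windows. Of 9 output genes of the STING pathway, 8 had a window, and 4 of these (Cxcl10, Ifit1, Ifit3 and Isg15) held GAAANNGAAA. A match is a description of letters and not a binding site, and a window without one says only that these letters are not in it.

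The Cgas and Samhd1 windows are printed for the sensing and the nuclease genes, and those of Isg15 and Ifit1 to show matches to GAAANNGAAA. Matches to either motif are in capitals, and each sequence runs 5′ to 3′ on the gene's own strand, up to the start of the gene model in the deposited table, so only part of each 300-base window is printed. The RefSeq start lies 169 bases downstream of that start for Samhd1 and 18 bases downstream for Ifit1, and at the same base for Cgas and Isg15. The Cgas bases are chr9:78443238-78443487 (minus strand), and the Samhd1 bases are chr2:157135266-157135346 (minus strand). The Isg15 bases are chr4:156200819-156200943 (minus strand), where 3 matches overlap into 1 run. The Ifit1 bases are chr19:34640764-34640870 (plus strand), with 2 separate matches on the opposite strand.
Cgas: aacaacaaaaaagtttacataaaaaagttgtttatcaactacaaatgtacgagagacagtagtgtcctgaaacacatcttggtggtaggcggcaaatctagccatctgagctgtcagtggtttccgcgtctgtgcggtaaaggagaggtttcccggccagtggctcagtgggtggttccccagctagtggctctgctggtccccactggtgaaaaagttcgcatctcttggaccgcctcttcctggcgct
Samhd1: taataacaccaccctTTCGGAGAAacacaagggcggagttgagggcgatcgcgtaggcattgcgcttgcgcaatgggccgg
Isg15: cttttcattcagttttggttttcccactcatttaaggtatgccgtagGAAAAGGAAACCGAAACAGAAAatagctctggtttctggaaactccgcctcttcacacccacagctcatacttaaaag
Ifit1: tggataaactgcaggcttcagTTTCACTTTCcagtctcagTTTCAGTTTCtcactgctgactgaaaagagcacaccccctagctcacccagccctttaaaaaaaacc

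Of 9 listed output genes, 6 reached 1 FPKM and were at least 2-fold higher in shSetdb1, beside 6.81% of all loci. Cxcl10, Ccl5, Ifit1 and Ifit3, 4 of the 6, were under 1 FPKM in shCtrl and passed the level filter through shSetdb1 alone, so they had to be higher there and their count is no support. Isg15 and Nfkbia reached the filter in both libraries. Ccl5, a T cell chemokine, had 14 reads in shCtrl and 402 in shSetdb1, the highest log2 ratio of the list at 3.72. Ifit3, an antiviral protein gene, had 12 and 396 reads, and Cxcl10, an interferon-induced chemokine, had 15 and 493. Isg15, a ubiquitin-like modifier, was at 24.8 FPKM in shCtrl and 186 in shSetdb1. Its promoter window printed above held letters matching GAAANNGAAA, as did that of Ifit1, which went from 19 to 230 reads. Nfkbia, the NF-kappaB inhibitor and the lowest of the 6 by ratio, had 387 and 1577 reads and a log2 ratio of 1.95. Its promoter window held a match to neither motif, and no window was found for Ccl5. Ifnb1, the interferon gene that IRF3 switches on, had 1 read in shCtrl and 5 in shSetdb1, a ratio of 4.84 with an interval of 0.541 to 229. Other sensors than cGAS also feed these genes, and the list was drawn up with earlier results of these libraries known.

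Among 15 other DNA sensors and their helpers, 14 reached 1 FPKM, 2 (14.3%) were at least 2-fold higher and 0 were 2-fold lower, against 6.81% and 4.85% of all loci, with a median log2 ratio of 0.02. The 0 rests on the pseudocount of 1: with 0.1, Polr3b, Rad50 and Polr3f were at least 2-fold lower, and over all loci 8.15% were. Zbp1, which binds unusual Z-form nucleic acids, had 55 reads in shCtrl and 1148 in shSetdb1, a log2 ratio of 3.33, and reached 1 FPKM in shSetdb1 alone. Ifi204, a DNA-binding member of the PYHIN family, had 199 and 472 reads and a log2 ratio of 1.02. The lowest was Polr3b, a subunit of the RNA polymerase that copies AT-rich DNA, with 713 and 314 reads and a log2 ratio of -0.98. Its read ratio was 0.426 (0.372 to 0.487). The read ratio of Zbp1 was 20.2 (15.4 to 27.0) and that of Ifi204 2.29 (1.94 to 2.72).

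Among the direct partners of cGAS and STING, 1 gene passed 2-fold, and most differed by less but beyond counting error. Most of the table did so too: 75.8% of all loci had an interval away from 1. Of 9 cGAS partners and regulators at 1 FPKM, 0 differed 2-fold, beside 11.7% of all loci. The interval of the read ratio lay above 1 for 4 of the 9 and below 1 for 4. Their log2 ratios ran from Banf1, which coats DNA and keeps cGAS off it, at -0.46, to Trim41, a ubiquitin ligase, at 0.69. Banf1 was at 283 FPKM in shCtrl and 206 in shSetdb1. Of 18 genes of STING trafficking and turnover, 1 (5.56%) was at least 2-fold higher, beside 6.81% of all loci. The interval lay above 1 for 7 of the 18 and below 1 for 8. The gene at least 2-fold higher was Usp18, a protease that removes ISG15 and is itself an interferon-stimulated gene, at 9.18 and 86.1 FPKM. The lowest was Insig1, a sterol-sensing protein of the endoplasmic reticulum, at a log2 ratio of -0.74. The median of this list was 0.01.

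Of 10 genes that move or destroy cGAMP, 5 reached 1 FPKM and 4 were listed at 0 in both libraries. Among those 4 was Enpp1, the main cGAMP hydrolase, named after its value was seen. Slc19a1, a folate carrier that also brings cGAMP into cells, had 1357 reads in shCtrl and 541 in shSetdb1. Its log2 ratio was -1.20 and its read ratio 0.386 (0.348 to 0.426). Slc19a1 was the 1 gene of all pathway lists called 2-fold lower with the pseudocount of 1. That is 1 of 5 (20.0%) in this list and 1 of 88 over all lists, beside 4.85% of all loci. With 0.1 the genes so called were 4 of the 88, beside 8.15% of all loci. The highest of this list was Lrrc8c, a volume-regulated anion channel subunit, at -0.02.

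Among the partners of TBK1, Ticam1, the adaptor of the endosomal RNA receptor TLR3, had 477 and 1208 reads and a log2 ratio of 1.25. It was the 1 gene of 10 at 1 FPKM (10.0%) that passed the threshold, beside 6.81% higher and 4.85% lower over all loci. With a pseudocount of 0.1 Ikbke passed too, beside 10.6% higher over all loci. Sqstm1, an autophagy receptor, was lowest at -0.76, from 793 to 467 FPKM. Named after their values were seen, Ikbke, the closest relative of Tbk1, had 220 and 510 reads (log2 ratio 0.80), and Irf3, its substrate, had 1089 and 1261 (0.20). Ikbke had a read ratio of 2.24 with an interval of 1.91 to 2.64, and 75.8% of all loci had an interval away from 1.

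Of 21 other nucleases, 13 reached 1 FPKM, and Dnase2a was the 1 gene (7.69%) at least 2-fold higher, near the 6.81% of all loci. Dnase2a, which digests DNA in lysosomes, was at 2.85 FPKM in shCtrl and 9.26 in shSetdb1, a log2 ratio of 1.41. Its read ratio was 3.14 (2.75 to 3.60), and 70.0% of its exon bases belong to no other gene. Apex1, an endonuclease of base repair, was lowest at -0.81. Among 4 other genes of Aicardi-Goutières syndrome or a related interferon disease, Adar and Dnase2a were at least 2-fold higher, beside 6.81% of all loci. With a pseudocount of 0.1 Ifih1 was too, beside 10.6% of all loci. Dnase2a is the gene already counted among the other nucleases, so it adds no separate case here. Ifih1, a sensor of double-stranded RNA, had 95 and 253 reads and reached 1 FPKM in shSetdb1 alone. Its log2 ratio was 0.71 and its read ratio 2.58 (2.03 to 3.30). Adar, the enzyme that edits double-stranded RNA, had 1715 reads in shCtrl and 4538 in shSetdb1, a log2 ratio of 1.33. Lsm11, a histone RNA processing factor, was lowest at 0.05. None of the 4 measured nuclease genes Samhd1, Rnaseh2a, Rnaseh2b and Rnaseh2c exceeded a log2 ratio of 0.45. Whether the 2 sets differ beyond the spread between cultures was not tested.

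Genes that supply deoxynucleotides or handle ribonucleotides in DNA act opposite or beside SAMHD1 and RNase H2. Of 10 such genes at 1 FPKM, 0 differed 2-fold, beside 11.7% of all loci, and their median log2 ratio was 0.22. Dck, a salvage kinase, was highest at 0.53, and Dut, which clears dUTP, lowest at -0.46. Over all 9 pathway lists, 88 of 109 genes reached 1 FPKM, 12 were at least 2-fold higher and 1 lower, and on log2(CPM + 1) the split was 14 and 5. Without the output genes, 6 of 82 (7.32%) were higher and 1 (1.22%) was lower, beside 6.81% and 4.85% of all loci, so the share higher was near that of the whole table. With a pseudocount of 0.1 these became 8 and 4 of 82, beside 10.6% and 8.15% of all loci. The plot of log2 ratios by list shows each gene at 1 FPKM, and 4 of the 6 output genes in it passed that filter through shSetdb1 alone.

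**Figure D4:**
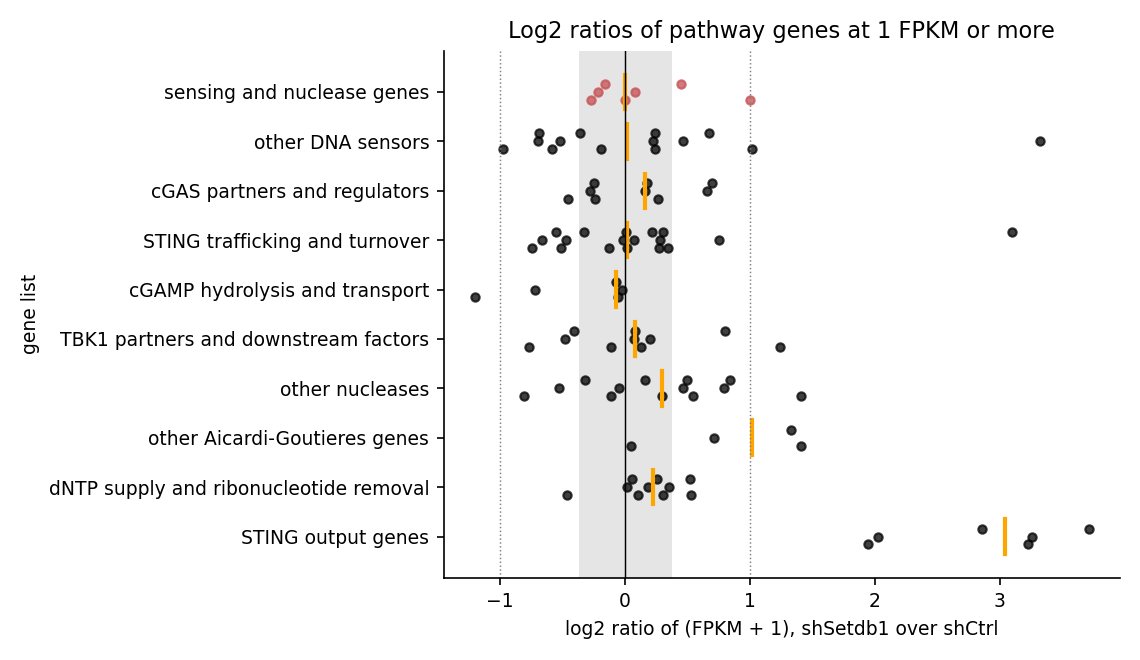
Log2 ratio of (FPKM + 1), shSetdb1 over shCtrl, of each gene at 1 FPKM or more (points) with the list median (orange); the grey band spans the quartiles of all 10671 loci and dotted lines mark 2-fold. The sensing and nuclease genes (red) run from -0.27 to 1.003 and the 6 output genes at 1 FPKM, 4 of them through shSetdb1 alone, from 1.95 to 3.72.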

How the data were processed

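The authors deposited FPKM values for 2 libraries, per the file headers. Per the submitters' processing notes, CASAVA, HISAT2, featureCounts 1.5.0-p3 and the GRCm38 build were used. Their roles and the strand setting are not given in the sources used here. Multiplied by gene length and divided by 1 step shared by all loci, the FPKM values above 0 gave whole reads (within 0.001) in 100% of cases. The step corresponds to a depth of 18731117 in each library, so FPKM ratios carry the 1.03 ratio of the read totals.

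Log2 ratios used a pseudocount of 1, a filter that kept loci reaching 1 FPKM in either library, and a 2-fold threshold. No p-value was computed, since neither group had a replicate. The calculations were tested on simulated data. Exon bases came from GENCODE M21, which holds 54409 of the 54680 loci, 98.0% of those with the same exon length. Promoters came from RefSeq. The members and gene lists were chosen with earlier results of these data known. Named from each list were the highest and lowest ratios and other genes past 2-fold, at most 5. Alternatives were a pseudocount of 0.1, 4 other scalings, log2(CPM + 1), a gene length correction (lowess, span 0.3), thresholds of 1.5-fold and 4-fold, no filter or 5 FPKM, protein-coding genes alone, and, chosen after seeing the data, the read ratio interval and transcript lengths. Software was matplotlib 3.10.9, scipy 1.17.1, statsmodels 0.14.6, pandas 2.3.3 and numpy 2.4.6, run under Python 3.11.15.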

Additional observations from a re-analysis of the deposited data

How the results depend on the processing

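The 2-fold call of Tmem173 depended on the scaling: 0 members were higher when scaled by own read totals, by the upper quartile or without the 100 highest genes, on log2(CPM + 1), after correction for gene length, and at 4-fold. Its log2 ratio under these settings, other than 4-fold, ran from 0.92 to 0.97. By the read ratio interval, chosen after seeing the data, 2 members were higher and 3 lower. Of 49 alternative values of the 7 members, 47 stayed within counting error, 2 moved (Samhd1, -0.36 by the upper quartile and -0.17 after correction for gene length) and 0 reversed.

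For Setdb1 the log2 ratio came to -2.06 on log2(CPM + 1) and to -2.04 at a pseudocount of 0.1. Pathway genes lower numbered 4 with the pseudocount of 0.1, 2 under own read totals, the upper quartile or without the 100 highest genes, and 5 on log2(CPM + 1). At 1.5-fold, 20 pathway genes were higher and 9 lower, and at 4-fold 7 higher and 0 lower. Over all loci, 1134 were higher and 870 lower with the pseudocount of 0.1, 1804 higher and 1523 lower at 1.5-fold, and 116 higher and 56 lower at 4-fold. Thresholds act by construction, and otherwise the cause was not tested. Cgas and Rnaseh2b, with at most 143 reads in either library, are limited most by depth. No paired analysis was possible because neither group had a second library, and for that reason none could be left out.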
